A study of Homo sapiens with 12 samples.

Results

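The genes described here are 10 RNA-binding proteins that control alternative splicing by binding short sequence elements: MBNL1, MBNL2, MBNL3, CELF1, CELF2, PTBP1, PTBP2, PTBP3, QKI and KHDRBS1. A probe set of the array counted for a gene if that gene was its only symbol in the platform annotation. By this rule 8 of the 10 genes had probe sets, out of 22036 gene symbols on the array. All 41 probe sets of PTBP1 also carried the symbol MIR4745 and all 54 of PTBP3 the symbol MIR3134, so both genes were not analysed here. The 8 measured genes had 374 probe sets, of which 209 detected an exon and 165 an exon-exon junction, and 292 passed the filter on low signal.

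The cells were 293T, derived from human embryonic kidney and carrying the SV40 large T antigen, and each of 4 groups had 3 arrays, 12 in all. Control cells carried a non-target hairpin (shRNA SHC016), and the other groups carried shRNA1, shRNA2 or shRNA3, each directed against RBFOX2. All groups, controls included, were infected with lentivirus and kept in puromycin at 1 ug/mL for 10 days. Infected populations were selected, and RNA of the whole population was measured, so fewer cells with a transcript and less transcript per cell cannot be told apart.

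RBFOX2 binds GCAUG elements, mostly in introns, and promotes or represses the neighbouring exon according to its position. The muscleblind proteins (MBNL) bind clusters of YGCY elements and drive the switch from fetal to adult splicing, and their capture by CUG repeats causes the splicing defects of myotonic dystrophy. CELF1 and CELF2 bind GU-rich elements and act against MBNL on a number of the same exons. PTBP1 and its neural paralog PTBP2 bind pyrimidine-rich tracts and mostly repress exons, and QKI and KHDRBS1 (Sam68) are members of the STAR family of KH-domain proteins. Regulators of this kind commonly control their own and each other's transcripts through alternative exons, which makes both their levels and their exon use of interest when RBFOX2 is depleted.

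The gene value was the mean log2 signal of a gene's kept probe sets. RBFOX2, over 44 probe sets, fell with each hairpin without overlap of arrays, and 48.7%, 72.6% and 59.7% of the control signal remained with shRNA1, shRNA2 and shRNA3. The knockdown was deepest with shRNA1 and shallowest with shRNA2. Of the 8 genes fixed as markers of 293 cells (such as VIM and NEFM), 8 were measured, with a mean gene value of 8.94 to 9.02 on control arrays, 8.999 to 9.062 with shRNA1, 8.99 to 9.10 with shRNA2 and 9.09 to 9.19 with shRNA3. With shRNA1, shRNA2 and shRNA3, 0, 1 and 3 of the 8 rose (5.99%, 5.92% and 12% of all genes) and none fell, for the mean of the hairpins 3 rose (10.3% of all genes), and the part of this in the results below was not tested. The 10 measured markers of other tissues had a mean of 7.81 to 7.98 over all arrays, and none was called. Both lists were mixed. The muscle marker ACTA1 had a mean of 9.795 and HBB of 8.127, while the 293 markers PAX2 and LHX1 had 8.097 and 7.963.

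At the gene level no change of the 8 regulators reached 1.5-fold. CELF1 and PTBP2 fell most, both with shRNA3. MBNL2 was the only one called higher, and MBNL1 and MBNL3 were called lower with 1 and 2 hairpins. CELF2, QKI and KHDRBS1 were not called in any contrast. In limma fits with Benjamini-Hochberg adjustment over all 16648 genes, 1 of 8 was called with shRNA1 (adjusted p below 0.05) where 10.1% of all genes were called, 3 of 8 with shRNA2 (14.5% of all genes) and 4 of 8 with shRNA3 (26.8%). By direction, 0 rose and 1 fell with shRNA1 (5.99% and 4.07% of all genes), 1 rose and 2 fell with shRNA2 (5.92% and 8.63%), and 1 rose and 3 fell with shRNA3 (12% and 14.8%). None was called with all 3 hairpins (4.68% of all genes). With shRNA1, shRNA2 and shRNA3, 3, 4 and 4 had an unadjusted limma p below 0.05, a looser threshold at which no share of all genes was taken. For the mean of the 3 hairpins, 4 of 8 were called, against 23.1% of all genes, 1 higher and 3 lower (10.3% and 12.8% of all genes). With at least 1 hairpin, 5 of 8 were called (33.5% of all genes). The median change of the 8 was -0.06 with shRNA1, -0.07 with shRNA2 and -0.06 with shRNA3 on the log2 scale, beside -0.01, 0.00 and 0.02 over all genes. The median size of the change was 0.0817, 0.0847 and 0.105, beside 0.0528, 0.0592 and 0.079 over all genes. For the mean of the hairpins it was 0.1156 beside 0.0543, and this difference from other genes was not tested. All contrasts against control use the same 3 control arrays.

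**Figure D1:**
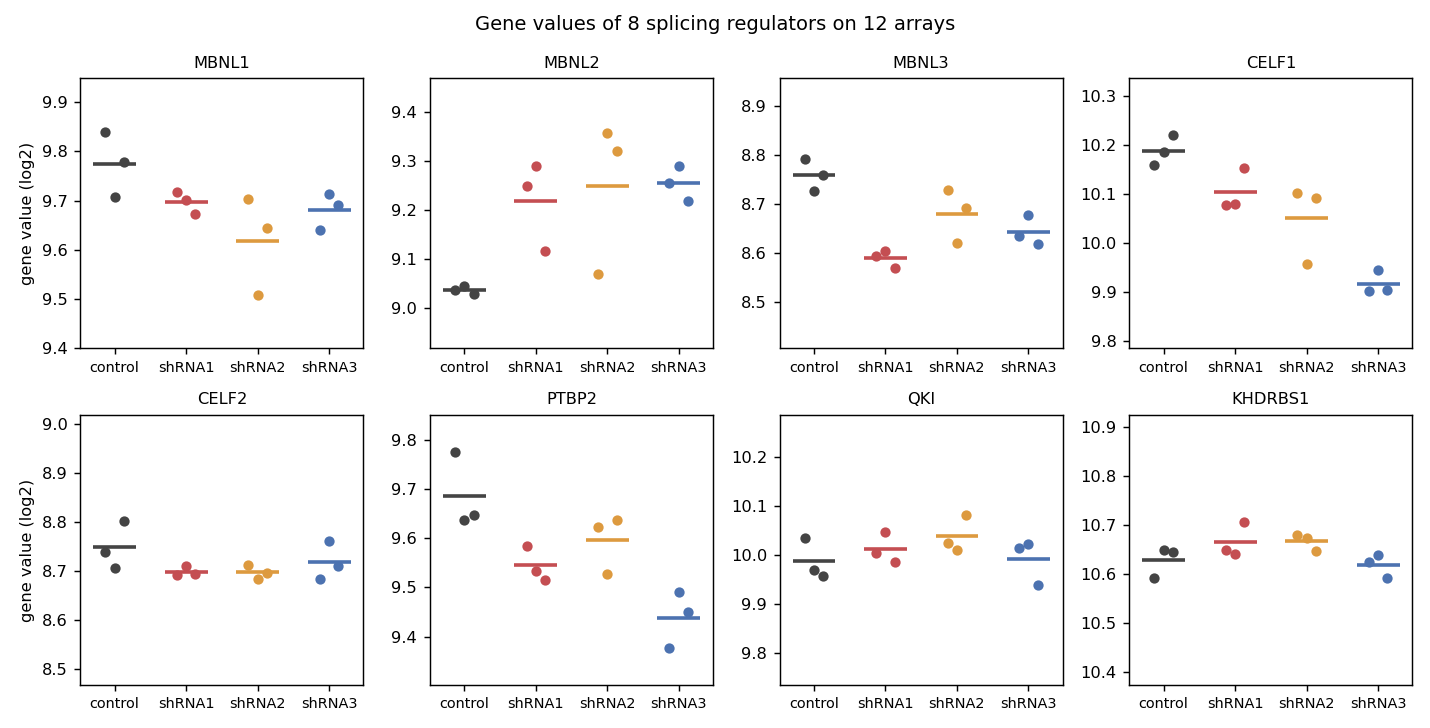
Gene values (log2, vertical axis) of the 8 measured regulators, with 1 point for each of the 12 arrays and a bar at the mean of each group of 3. Every panel spans the same number of log2 units. The CELF1 arrays with shRNA3 lie between 9.90 and 9.95 and the control arrays between 10.16 and 10.22, while CELF2, QKI and KHDRBS1 overlap between groups.

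Of the muscleblind genes, MBNL2 rose with shRNA2 and shRNA3, MBNL3 fell with shRNA1 and shRNA3, and MBNL1 fell with shRNA2. The MBNL2 gene value, over 24 probe sets, was 9.04, 9.04 and 9.03 in control cells, 9.25, 9.29 and 9.12 after shRNA1, 9.07, 9.36 and 9.32 after shRNA2, and 9.26, 9.29 and 9.22 after shRNA3. All 9 knockdown arrays lay above all 3 control arrays, with array 1 of shRNA2 closest to them. The log2 change was 0.18 with shRNA1 (SE 0.0632, n = 3 arrays per group; limma adjusted p = 0.085), 0.21 with shRNA2 (adjusted p = 0.0368) and 0.22 with shRNA3 (adjusted p = 0.0218). The mean over the hairpins was 0.20 (SE 0.0516; adjusted p = 0.0119), a signal at 115% of control. Of the 24 probe sets 19 were higher with each of the 3 hairpins and 2 were lower with each. Such counts, here and for the genes below, come from the same probe sets that are averaged into the gene value. The hairpins also share the control arrays, so these counts add no separate support to a call.

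The MBNL2 calls rested on few arrays. For the mean, the limma adjusted p was 0.0527 without control array 1 and 0.0522 without control array 3, and over all alternatives it ranged from 0.000462 to 0.0527. The shRNA3 call was lost without control array 1 (0.0602), control array 3 (0.0601), shRNA3 array 1 (0.0648) or shRNA3 array 2 (0.058), with a range of 0.00178 to 0.0648. The shRNA2 call was lost without control array 1 (0.0937), 2 (0.0667) or 3 (0.0973) and without shRNA2 array 2 (0.162) or 3 (0.0986), with a range of 0.00109 to 0.162. Without shRNA2 array 1, the shRNA1 change passed (limma adjusted p = 0.0141, range 0.0141 to 0.285), and MBNL2 was then called with all 3 hairpins. Summarising the gene by the median of its probe sets gave larger changes of 0.37, 0.38 and 0.36 with shRNA1, shRNA2 and shRNA3 and a call with each (adjusted p = 0.0361, 0.0204 and 0.0182).

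MBNL3 is the muscleblind paralog linked to inhibition of muscle differentiation. Its gene value, over 32 probe sets, was 8.79, 8.73 and 8.76 in control cells, 8.59, 8.61 and 8.57 after shRNA1, 8.73, 8.62 and 8.69 after shRNA2, and 8.63, 8.68 and 8.62 after shRNA3. The shRNA1 and shRNA3 arrays lay below the controls, and shRNA2 overlapped them through its array 1. MBNL3 fell by 0.17 on the log2 scale with shRNA1 (SE 0.0356; limma adjusted p = 0.0104) and by 0.12 with shRNA3 (adjusted p = 0.0284), and the shRNA2 change of -0.08 was not called (adjusted p = 0.153). The mean change was -0.12 (SE 0.0291; adjusted p = 0.00918), or 91.9% of control. Without control array 1 all 3 of these calls were lost (limma adjusted p = 0.0503 for shRNA1, 0.103 for shRNA3 and 0.0636 for the mean). The shRNA3 call was also lost without control array 3 (0.0725), shRNA3 array 1 (0.0924) or shRNA3 array 3 (0.0911). In all it was lost in 8 of 20 alternatives, and only 4 of these left out an array. Over all alternatives the adjusted p ranged from 0.00476 to 0.0511 for shRNA1, from 0.0174 to 0.228 for shRNA3 and from 0.00423 to 0.0636 for the mean. Summarised by the median of the probe sets, the shRNA1 change was -0.28 but its call was lost (limma adjusted p = 0.0511), and the mean change was -0.19.

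MBNL1, the main muscleblind protein of most tissues, was called lower with 1 hairpin. Its gene value, over 47 probe sets, was 9.84, 9.71 and 9.78 in control cells, 9.72, 9.70 and 9.67 after shRNA1, 9.70, 9.51 and 9.64 after shRNA2, and 9.64, 9.71 and 9.69 after shRNA3. The shRNA2 arrays lay below the controls, and the other groups overlapped them. MBNL1 fell by 0.16 on the log2 scale with shRNA2 (SE 0.0482; limma adjusted p = 0.0426), while the changes of -0.08 with shRNA1 and -0.09 with shRNA3 were not called (adjusted p = 0.338 and 0.154). The mean change was -0.11 (SE 0.0393; adjusted p = 0.0579). The shRNA2 call was lost without control array 1 (limma adjusted p = 0.164) or 3 (0.106), shRNA1 array 1 (0.0561), 2 (0.0593) or 3 (0.0549), shRNA2 array 2 (0.18) or 3 (0.0551), and shRNA3 array 2 (0.0507) or 3 (0.0555), and it ranged from 0.0116 to 0.187. Without shRNA2 array 2 the change itself was -0.10. The mean change passed without control array 2 (0.0404) or shRNA2 array 1 (0.0208), with a range of 0.0176 to 0.587.

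CELF1, which also directs decay of mRNAs with GU-rich elements, fell with shRNA2 and shRNA3. Its gene value, over 51 probe sets, was 10.16, 10.19 and 10.22 in control cells, 10.08, 10.08 and 10.15 after shRNA1, 10.10, 9.96 and 10.09 after shRNA2, and 9.90, 9.95 and 9.91 after shRNA3. Every knockdown array lay below every control array, and the shRNA3 arrays were the lowest of all. CELF1 fell by 0.27 on the log2 scale with shRNA3 (SE 0.0413, 95% confidence interval -0.36 to -0.18; limma adjusted p = 0.000722), leaving 82.8% of the control signal. It fell by 0.14 with shRNA2 (adjusted p = 0.0384), and the shRNA1 change of -0.09 was not called (adjusted p = 0.215). The mean change was -0.16 (SE 0.0338; adjusted p = 0.00404). Of its 51 probe sets, 42 were lower with each of the 3 hairpins and 1 was higher with each.

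The CELF1 calls for shRNA3 and for the mean held under every alternative tried, with limma adjusted p from 0.000186 to 0.00537 and from 0.00129 to 0.0311. The shRNA2 call was lost without control array 1 (adjusted p = 0.0662), 2 (0.0754) or 3 (0.13), shRNA1 array 2 (0.0532), shRNA2 array 2 (0.159) or shRNA3 array 3 (0.0507), with a range of 0.0112 to 0.159. Without shRNA2 array 2 the shRNA2 change was -0.09. CELF1 was the only 1 of the 8 called between hairpins, and it was lower with shRNA3 than with shRNA1 by -0.19 (SE 0.0413, 95% confidence interval -0.28 to -0.10; limma adjusted p = 0.0203), where 7.1% of all genes were called. None of the 8 was called for shRNA2 minus shRNA1 or for shRNA3 minus shRNA2, where 1.19% and 3.56% of all genes were called. At an unadjusted limma p below 0.05 there were 1 of 8 and 2 of 8, with no share of all genes taken at this looser threshold. The deeper knockdown of RBFOX2 was the one with shRNA1, and a relation of CELF1 to the depth of knockdown was not tested. The CELF1 call for shRNA3 minus shRNA1 was lost without shRNA1 array 2 (adjusted p = 0.053) or 3 (0.0872) and without shRNA3 array 1 (0.0849) or 3 (0.0752), with a range of 0.00655 to 0.116. The difference of shRNA3 from shRNA2 was -0.13 (adjusted p = 0.0868, 95% confidence interval -0.22 to -0.04).

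CELF2, a paralog most studied in brain, heart and T cells, was not called. Its gene value, over 39 probe sets, was 8.74, 8.71 and 8.80 in control cells, 8.69, 8.71 and 8.69 after shRNA1, 8.71, 8.68 and 8.70 after shRNA2, and 8.68, 8.76 and 8.71 after shRNA3. Each hairpin group overlapped the controls. The changes of -0.05, -0.05 and -0.03 (SE 0.0343; limma adjusted p = 0.389, 0.333 and 0.513) had 95% confidence intervals reaching at most -0.13 downward and 0.04 upward. Of the 39 probe sets 15 were lower and 5 higher with each of the 3 hairpins.

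PTBP2 is the neural paralog of PTBP1, which holds it down in non-neural cells by promoting skipping of a PTBP2 exon. Its gene value, over 40 probe sets, was 9.78, 9.64 and 9.65 in control cells, 9.58, 9.53 and 9.52 after shRNA1, 9.62, 9.53 and 9.64 after shRNA2, and 9.38, 9.49 and 9.45 after shRNA3. The shRNA3 arrays were the lowest, and the highest shRNA2 array lay at 9.637 beside a lowest control of 9.638. PTBP2 fell by 0.25 on the log2 scale with shRNA3 (SE 0.046, 95% confidence interval -0.35 to -0.15; limma adjusted p = 0.00224), leaving 84.2% of control. The changes of -0.14 with shRNA1 and -0.09 with shRNA2 were not called (adjusted p = 0.0661 and 0.204), and the mean change was -0.16 (SE 0.0376; adjusted p = 0.00827). Of its 40 probe sets, 29 were lower with each of the 3 hairpins and 0 were higher with each.

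The PTBP2 call for shRNA3 held under every alternative tried (limma adjusted p from 0.00123 to 0.0153). The call for the mean was lost without control array 1, the highest of the 12 (change -0.12, adjusted p = 0.0729, range 0.00289 to 0.0729). Summarised by the median of the probe sets, PTBP2 was called with shRNA1 too (-0.28, adjusted p = 0.0279, range 0.0174 to 0.249), and its mean change was -0.26. Between hairpins, PTBP2 was not called: the differences of shRNA3 were -0.11 from shRNA1 (adjusted p = 0.128) and -0.16 from shRNA2 (adjusted p = 0.0721).

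Neither STAR protein was called. QKI, known for its part in myelination and for ACUAA elements, had 10.03, 9.97 and 9.96 in control cells, 10.00, 10.05 and 9.99 after shRNA1, 10.03, 10.01 and 10.08 after shRNA2, and 10.02, 10.02 and 9.94 after shRNA3. KHDRBS1, a signalling-dependent regulator that binds AU-rich elements, had 10.59, 10.65 and 10.65 in control cells, 10.65, 10.64 and 10.71 after shRNA1, 10.68, 10.67 and 10.65 after shRNA2, and 10.63, 10.64 and 10.59 after shRNA3. All hairpin groups of both genes overlapped the controls. The changes were 0.03, 0.05 and 0.01 for QKI (SE 0.0371; limma adjusted p = 0.727, 0.372 and 0.917) and 0.04, 0.04 and -0.01 for KHDRBS1 (SE 0.033; adjusted p = 0.541, 0.473 and 0.817). Their 95% confidence intervals lay within -0.07 to 0.13 for QKI and -0.08 to 0.11 for KHDRBS1.

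**Figure D2:**
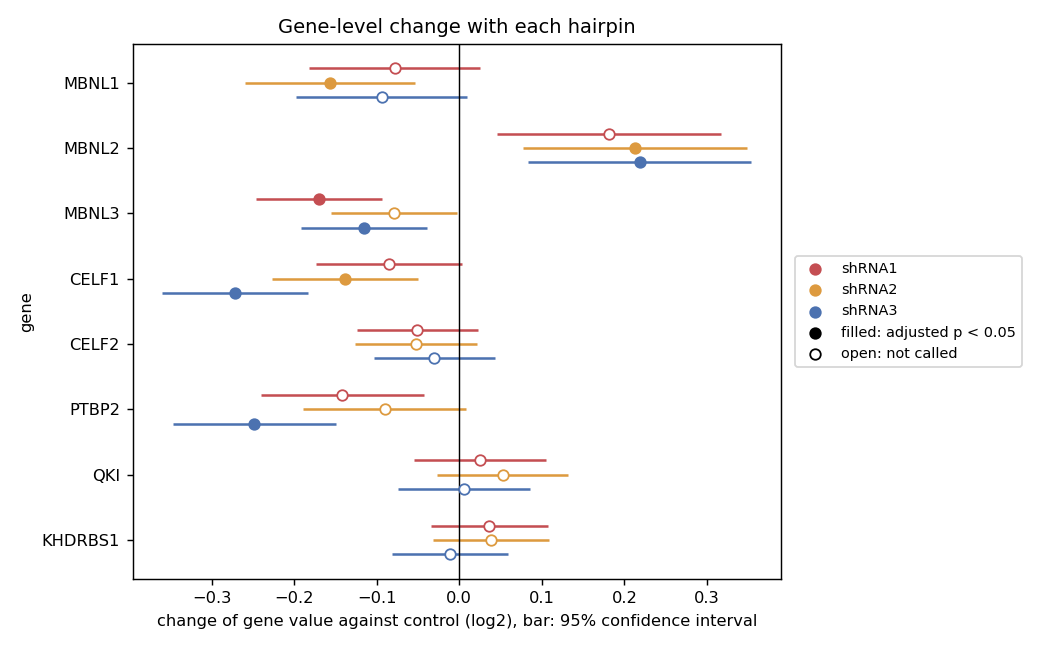
Change of the gene value against control (log2, horizontal axis) for each regulator and hairpin, with 95% confidence intervals from the limma fit. Filled points had an adjusted p below 0.05. MBNL2 lies above 0 with all hairpins, and CELF1 and PTBP2 lie farthest below 0 with shRNA3, at -0.27 and -0.25.

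Exon and junction use was read from the splicing index, which subtracts from a probe set's log2 signal the average of its gene's remaining kept probe sets on that array. A call required an adjusted p below 0.05 and a difference of 1.5-fold or more. Among the 292 probe sets of the 8 regulators, 1 was called with each hairpin, where 0.129%, 0.22% and 0.195% of all 417377 probe sets were called with shRNA1, shRNA2 and shRNA3. With at least 1 hairpin 2 of 292 were called (0.397% of all), and with all 3 none was (0.0386% of all). The numbers with an unadjusted limma p below 0.05 were 44, 54 and 44, with no share of all probe sets taken at this looser threshold. Between hairpins 0 of the 292 were called. Over all probe sets, 0.0177%, 0.00311% and 0.0189% were called for shRNA2 minus shRNA1, shRNA3 minus shRNA1 and shRNA3 minus shRNA2. In the same order, 12, 31 and 41 of the 292 had an unadjusted limma p below 0.05. That threshold is looser than the call, and no share of all probe sets was taken at it. The median size of the change was 0.07, 0.08 and 0.08 on the log2 scale with the 3 hairpins, beside 0.08, 0.09 and 0.08 over all probe sets.

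**Figure D3:**
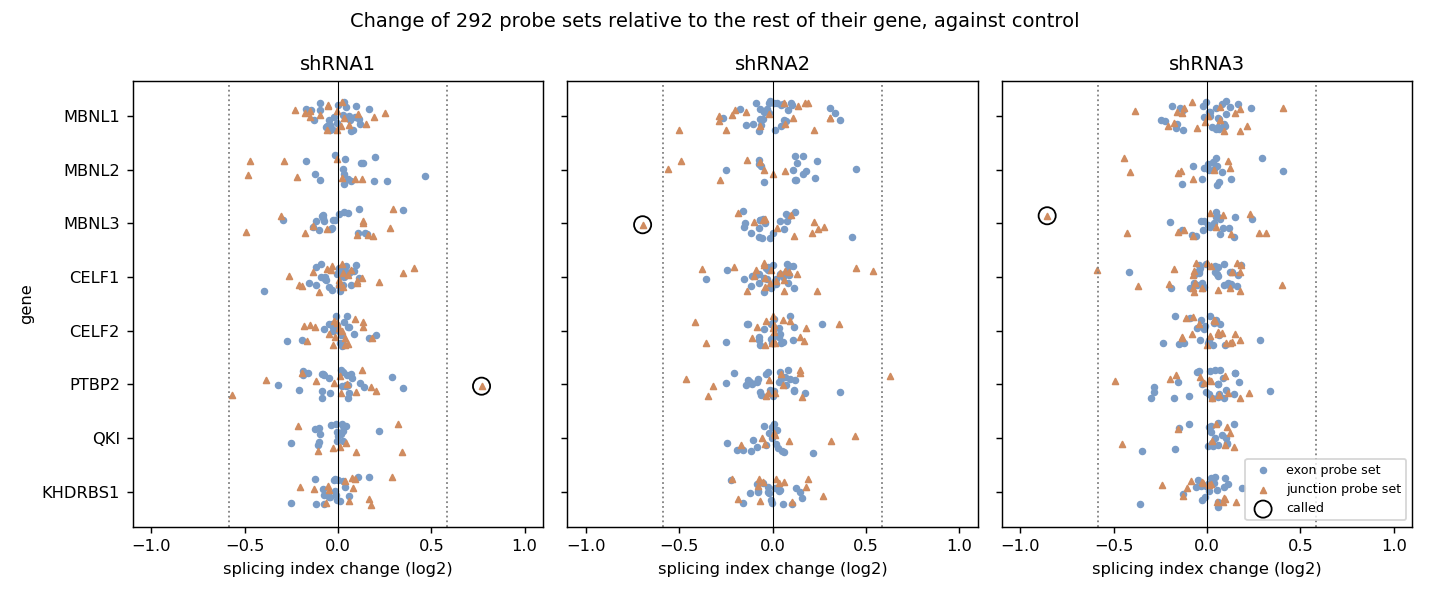
Splicing index change against control (log2, horizontal axis) of the 292 probe sets of the 8 regulators, with 1 panel per hairpin and exon and junction probe sets marked apart. Dotted lines mark 1.5-fold and circles the called probe sets. The called junctions are the MBNL3 junction at -0.70 with shRNA2 and -0.86 with shRNA3 and the PTBP2 junction at 0.77 with shRNA1.

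The called MBNL3 probe set was the junction JUC0X009441.hg.1. Its log2 signal was 7.54, 7.53 and 7.50 in control cells, 6.92, 6.69 and 7.03 after shRNA1, 7.18, 6.49 and 6.64 after shRNA2, and 6.67, 6.61 and 6.45 after shRNA3. The 9 knockdown arrays all read below the 3 controls, and 2 of the 9 lay below 6.53, the level used as filter on the mean. Its splicing index changed by -0.49 with shRNA1 (SE 0.139; limma adjusted p = 0.165), by -0.70 with shRNA2 (adjusted p = 0.0423) and by -0.86 with shRNA3 (adjusted p = 0.0231). For the mean of the hairpins it fell by 0.68 (SE 0.113, 1.6-fold; adjusted p = 0.0189), and it was the only one of the 292 called in that contrast (0.16% of all probe sets). Blocking on replicate number, the shRNA2 value had an adjusted p of 0.0561 (range over alternatives 0.0115 to 0.121).

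The mean and shRNA3 calls of this MBNL3 junction were lost without control array 1 (limma adjusted p = 0.07 and 0.0711), 2 (0.0707 and 0.0679) or 3 (0.0862 and 0.0833). The shRNA3 call was also lost without shRNA3 array 1 (0.0748), 2 (0.055) or 3 (0.0687). The shRNA2 call was lost without control array 1 (0.0875), 2 (0.096) or 3 (0.121), shRNA1 array 1 (0.056) or 3 (0.053), shRNA2 array 3 (0.101), or shRNA3 array 1 (0.0504) or 2 (0.0571), and without shRNA2 array 2 the change of -0.58 was under 1.5-fold. Ranges over all alternatives were 0.00204 to 0.0862 for the mean and 0.00351 to 0.0833 for shRNA3. The value kept its sign throughout and lay between -0.74 and -0.55 for the mean.

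The called PTBP2 probe set was the junction JUC01007356.hg.1, higher with shRNA1, a hairpin with which the gene value was not called. Its splicing index was -1.69, -1.68 and -1.91 in control cells, -1.16, -0.95 and -0.87 after shRNA1, -0.94, -1.34 and -1.101 after shRNA2, and -1.26, -1.54 and -1.80 after shRNA3. Its own log2 signal was 7.78 to 8.13 on control arrays and 8.46 to 8.67 with shRNA1. The shRNA1 and shRNA2 arrays lay above the controls and shRNA3 overlapped them. The splicing index changed by 0.77 with shRNA1 (SE 0.138, 1.7-fold; limma adjusted p = 0.0446), by 0.63 with shRNA2 (adjusted p = 0.0528) and by 0.23 with shRNA3 (adjusted p = 0.459). The difference of shRNA3 from shRNA1 was -0.54 (SE 0.138; adjusted p = 0.198). The shRNA1 call was lost without control array 1 (0.111), 2 (0.0962) or 3 (0.154), shRNA1 array 1 (0.08), 2 (0.17) or 3 (0.159), shRNA2 array 3 (0.0604) or shRNA3 array 2 (0.0675), with a range of 0.0161 to 0.17. It was also lost with no filter on low signal, with exon probe sets alone as the reference, and when blocking on replicate number.

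Without the fold minimum, 2, 6 and 4 of the 292 probe sets passed an adjusted p of 0.05 with shRNA1, shRNA2 and shRNA3 (0.329%, 1.12% and 0.799% of all probe sets), 9 with at least 1 hairpin (1.76% of all), and 11 passed for the mean (1.61% of all). These probe sets are outside the naming rule, apart from the largest of each gene, and were picked after their values were seen. The junction JUC13002176.hg.1 of MBNL2 was the only one to pass with all 3 hairpins (0.109% of all). Its log2 signal was 7.82, 7.97 and 7.94 in control cells, 7.68, 7.69 and 7.55 after shRNA1, 7.52, 7.67 and 7.57 after shRNA2, and 7.74, 7.55 and 7.82 after shRNA3. The 9 knockdown arrays all read below the 3 controls, the closest pair at 7.817 and 7.82, while the MBNL2 gene value was higher on all of them. Its splicing index changed by -0.47, -0.56 and -0.45 (SE 0.0868; limma adjusted p = 0.0493, 0.0216 and 0.0426), and by -0.49 for the mean (1.41-fold; adjusted p = 0.0103). Leaving out 1 array at a time, the adjusted p rose above 0.05 in 9, 3 and 8 of 12 fits for shRNA1, shRNA2 and shRNA3.

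MBNL2 held 2 further such probe sets for the mean. The exon probe set PSR13003517.hg.1 changed by 0.44 (SE 0.0706; limma adjusted p = 0.0167) and the junction JUC13002170.hg.1 by -0.46 (SE 0.0789; adjusted p = 0.0208), so that MBNL2 probe sets moved apart in both directions. The splicing index of the exon was 0.16, 0.27 and 0.19 on the control arrays and between 0.44 and 0.80 on the knockdown arrays, which do not overlap. For the mean, JUC13002176.hg.1 was lost without control array 2 (adjusted p = 0.0505) or 3 (0.0702, range 0.00528 to 0.0702). PSR13003517.hg.1 was lost without control array 1 (0.0725) or 3 (0.0876, range 0.0028 to 0.0876), and JUC13002170.hg.1 without control array 2 (0.0809) or 3 (0.111, range 0.00977 to 0.111).

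In QKI, whose gene value did not pass, the junction JUC06006926.hg.1 had the smallest adjusted p of all 292 probe sets against control. Its splicing index was -1.53, -1.43 and -1.42 in control cells, -1.68, -1.65 and -1.68 after shRNA1, -1.59, -1.66 and -1.65 after shRNA2, and -1.82, -1.93 and -1.99 after shRNA3. The groups did not overlap the controls, and shRNA3 was lowest. The change was -0.45 with shRNA3 (SE 0.0576, 1.37-fold; limma adjusted p = 0.00745), beside -0.21 with shRNA1 and -0.17 with shRNA2 (adjusted p = 0.151 and 0.148). The shRNA3 value kept its adjusted p below 0.05 without each of the 12 arrays in turn, and lost it without the filter on low signal (0.0518) and in a fit of these groups alone (0.0616, range 0.00117 to 0.0616). The exon probe set PSR06013946.hg.1 of QKI changed by -0.35 with shRNA3 (limma adjusted p = 0.0415), under 1.5-fold and so not called. Its adjusted p rose above 0.05 in 8 of the 12 fits that left out 1 array.

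PTBP2, MBNL3 and CELF1 held the other ones that passed for the mean. The junction JUC01007367.hg.1 of PTBP2 changed by -0.47 (SE 0.0981; limma adjusted p = 0.0399), opposite to the called PTBP2 junction, whose mean change of 0.54 (adjusted p = 0.0399) was under 1.5-fold. The exon probe set PSR0X018407.hg.1 of MBNL3 changed by 0.34 (adjusted p = 0.0364). In CELF1 the exon probe sets PSR11020394.hg.1 and PSR11020376.hg.1 changed by -0.39 and -0.20 (adjusted p = 0.0373 and 0.0483) and the junction JUC11010892.hg.1 by 0.21 (adjusted p = 0.0488). Each of these 6 lost its adjusted p in 8 to 11 of the 12 fits that left out 1 array.

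**Figure D4:**
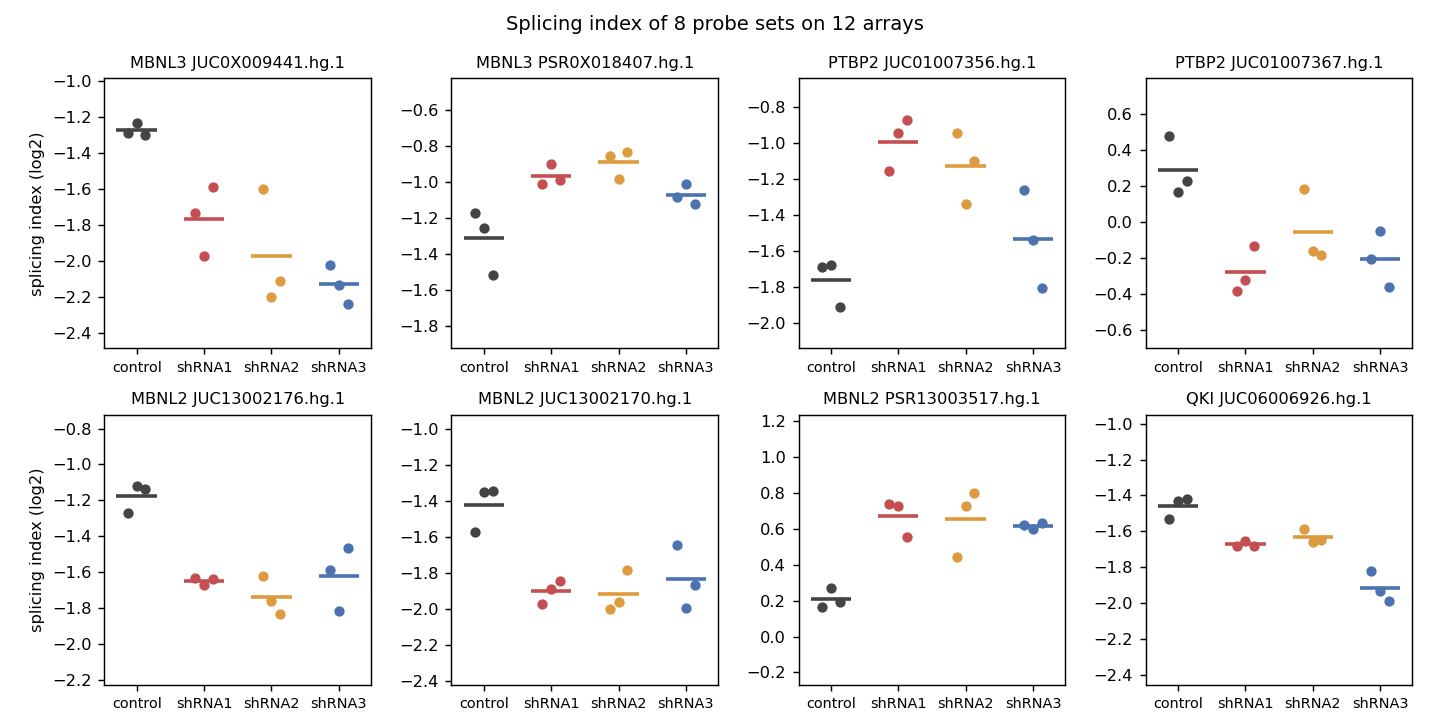
Splicing index (log2, vertical axis) of 8 probe sets of MBNL3, PTBP2, MBNL2 and QKI, with 1 point for each of the 12 arrays and a bar at the group mean. Probe set names beginning with JUC are junctions and those with PSR exons. The MBNL3 junction JUC0X009441.hg.1 lies between -1.30 and -1.23 on control arrays and at -1.59 or lower on all knockdown arrays.

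For the other members with no called probe set, the largest mean change was 0.45 for the junction JUC11010881.hg.1 of CELF1, -0.30 for the junction JUC03007535.hg.1 of MBNL1, 0.29 for the junction JUC06006917.hg.1 of QKI, 0.25 for the exon probe set PSR10000838.hg.1 of CELF2 and 0.24 for the junction JUC01003306.hg.1 of KHDRBS1. MBNL1 JUC03007535.hg.1 changed by -0.50 with shRNA2 alone past the adjusted p (limma, 0.0415), lost in 10 of the 12 fits that left out 1 array. Probe sets within a gene were most uniform in KHDRBS1, where 33 of 33 mean changes lay within 0.25 of the rest of the gene, and in CELF2, where 38 of 39 did. In MBNL2 21 of 24 did and in PTBP2 35 of 40.

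The filter removed 82 of the 374 probe sets, and 11 of those, 10 of them junctions, moved by at least 1.5-fold in mean signal, 9 lower and 2 higher. The share of all removed probe sets that moved this far was not taken, so no excess can be read from these counts. The largest was the MBNL1 junction JUC03007533.hg.1, with log2 signals of 5.34, 4.14 and 4.96 on the control arrays and 2.30 to 3.84 on the knockdown arrays, a mean difference of -1.66. The lower ones included 4 PTBP2 junctions, at -0.74 to -0.60, and the higher ones were both MBNL2 junctions, at 0.97 and 0.65. None of the 82 was called with any hairpin or for the mean in a fit without the filter (adjusted p = 0.0819 for the MBNL1 junction and the mean). These signals lie in the dim range of the array.

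MBNL2 had the largest mean change at the gene level, and the gene values nearest to its own, each centred on its control mean, were those of MAP2K5, ZNF292 and ZFP90. Their mean absolute differences from MBNL2 over the 12 arrays were 0.0252, 0.0296 and 0.0303, beside a median of 0.164 over 16640 genes. They were chosen for this closeness, so their own changes carry no further information.

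Other regulators that bind sequence elements were set beside these 8. Of 30 listed, 29 were measured, and 2, 3 and 4 fell with shRNA1, shRNA2 and shRNA3 (4.07%, 8.63% and 14.8% of all genes), while 0, 0 and 2 rose (5.99%, 5.92% and 12% of all genes). The median changes were 0.01, 0.02 and 0.02. RBFOX2, the target of the hairpins, was the only one called with all 3. It is among the 29 and among those counted as fallen with each hairpin, so these counts are not of bystander genes alone. RBM38, which binds GU-rich elements, fell by 0.15 with shRNA1 (limma adjusted p = 0.0274) and fell by 0.13 with shRNA3 (0.0239). These calls were lost without control array 1 (0.0792 and 0.0624), 2 (0.0651 and 0.0504) or 3 (0.0785 and 0.065), that for shRNA1 also without shRNA1 array 1 (0.122) or 2 (0.0888, range 0.0108 to 0.122) and that for shRNA3 without shRNA3 array 1 (0.0946, range 0.00974 to 0.0946). Its mean change of -0.13 (SE 0.0317; limma adjusted p = 0.0097) kept its call under every alternative, from 0.00203 to 0.0451. By the median of the probe sets its changes were larger, at -0.25 for the mean, -0.24 with shRNA1 and -0.29 with shRNA3. RBM47 fell by 0.16 with shRNA2 (limma adjusted p = 0.0122, range 0.00334 to 0.0547) and was at -0.01 with shRNA3, a difference between these hairpins of 0.15 (adjusted p = 0.0364, range 0.00891 to 0.185). That difference was lost without control array 2 (0.0547) or 3 (0.0549), shRNA1 array 1 (0.0568), 2 (0.0597) or 3 (0.0547), shRNA2 array 3 (0.123), or shRNA3 array 1 (0.0656), 2 (0.0581) or 3 (0.156). The remaining called genes of the list are outside the naming rule and were named after their values were seen. ELAVL2, a neuronal regulator that binds AU-rich elements, fell by 0.19 with shRNA2 (limma adjusted p = 0.00371, range 0.00243 to 0.0301, never lost). It was lower with shRNA2 than with shRNA1 by -0.18 (adjusted p = 0.0165, range 0.00233 to 0.0987), lost without shRNA1 array 1 (0.0852) or 2 (0.0987). It was higher with shRNA3 than with shRNA2 by 0.14 (adjusted p = 0.0382, range 0.0112 to 0.252), lost without control array 2 (0.0562) or 3 (0.0585), shRNA1 array 1 (0.0545) or 2 (0.0596), shRNA2 array 1 (0.102) or 3 (0.104), or shRNA3 array 1 (0.134), 2 (0.0888) or 3 (0.0816).

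With shRNA3, TIA1, which binds U-rich elements, fell by 0.14 (limma adjusted p = 0.0185, range 0.0107 to 0.143), lost without control array 1 (0.053) or 3 (0.0689) or shRNA3 array 1 (0.0842) or 3 (0.0591). RAVER1, a PTB-binding cofactor, fell by 0.09 (adjusted p = 0.0479, range 0.0337 to 0.582), lost without any 1 of control arrays 1 (0.0615), 2 (0.0797) and 3 (0.18), shRNA1 arrays 1 (0.0532) and 2 (0.0667) and shRNA3 arrays 1 (0.124), 2 (0.0724) and 3 (0.111). CELF6, a paralog of CELF1, rose by 0.13 (adjusted p = 0.0361, range 0.0179 to 0.21), lost without control array 1 (0.0734) or 3 (0.134) or shRNA3 array 1 (0.176) or 3 (0.05). KHDRBS2, a paralog of KHDRBS1, rose by 0.14 (adjusted p = 0.0182, range 0.0144 to 0.944), lost without control array 1 (0.0657) or shRNA3 array 1 (0.0925), and was at -0.01 without the filter on low signal. Another neuronal regulator, ELAVL4, had changes of -0.15, -0.18 and -0.11, not called (adjusted p = 0.146, 0.0727 and 0.183).

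Of 8 proteins of LASR, the large assembly of splicing regulators in which RBFOX proteins are found, 5 were measured. With shRNA1, shRNA2 and shRNA3, 1, 1 and 1 of the 5 rose (5.99%, 5.92% and 12% of all genes). In the same order 0, 0 and 1 fell (4.07%, 8.63% and 14.8% of all genes), and 1 was called with all 3 (4.68% of all genes). HNRNPUL2 rose with all 3 hairpins, by 0.17, 0.13 and 0.14 on the log2 scale (SE 0.0388; limma adjusted p = 0.0167, 0.044 and 0.0173), with adjusted p over the alternatives of 0.00944 to 0.0789, 0.0154 to 0.181 and 0.0109 to 0.0809. All 3 calls were lost without control array 1 (0.077, 0.181 and 0.0809). That for shRNA1 was also lost without shRNA1 array 2 (0.0789) or 3 (0.0589). That for shRNA2 was also lost without control array 3 (0.0663), shRNA1 array 2 (0.0618), shRNA2 array 2 (0.121) or 3 (0.0846), or shRNA3 array 1 (0.0571), 2 (0.0549) or 3 (0.057). HNRNPC fell by 0.13 with shRNA3 (adjusted p = 0.0428), and this was lost without control array 1 (0.157), 2 (0.0635) or 3 (0.0601), shRNA1 array 2 (0.0559), or shRNA3 array 1 (0.139), 2 (0.0703) or 3 (0.0741), with a range of 0.0223 to 0.665. HNRNPM, at -0.09, -0.08 and -0.11, and ILF2, at -0.02, -0.01 and -0.07, were not called.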

How the data were processed

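The authors deposited log2 values per probe set for 12 arrays, made with Affymetrix Expression Console and RMA per the submitters' processing notes. Their versions, settings and the build stay unknown here, and no probe set positions or sequences were used. RMA shrinks differences between dim probe sets, and probes of related genes can cross-hybridise. Gene names came from the platform annotation, updated with RefSeq names (GRCh38.p14). Identical copies of a probe set counted once. Probe sets with a mean above the 40th percentile (log2 6.53) were kept. A gene value was the mean of at least 3 kept probe sets, and a splicing index needed at least 4. Apart from the marker lists, levels were not compared between genes.

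All 4 groups were fitted together without a block with limma 3.58.1 (lmFit, eBayes, two-sided) in R 4.3.3 with data.table (version 1.17.8), giving 8 residual degrees of freedom, and adjusted over all features. Steps were tested on simulated data. Array medians were 7.24 to 7.27 and correlations between arrays, across probe sets, 0.983 to 0.994. No 2 arrays were identical. Same-numbered control and shRNA2 arrays deviated together over genes (r of 0.202, 0.432 and 0.264), which held for no other pair of groups, so block values are given beside shRNA2 results where they change a call. Nothing in the labels tells whether replicates came from separate cultures. The p-values therefore reflect array-to-array spread alone, possibly technical.

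The text names the 8 measured members, called probe sets, the largest probe set of each member with none, up to 4 genes per other list, its remaining called genes (added after seeing values), and 3 genes nearest to the member that changed most. Members and lists were chosen with earlier results of these data known. Alternatives were another filter or none, quantile normalization, copies kept, exon probe sets alone for the gene value or for the reference of the splicing index (junctions still tested), medians, the replicate block, only the groups compared, no fold minimum, and leaving out each array.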

Additional observations from a re-analysis of the deposited data

Results flagged for a closer look

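CELF1 was singled out because its change differed between hairpins when the difference itself was tested. Its gene value was lower with shRNA3 than with shRNA1 by -0.1864 on the log2 scale (SE 0.0413, 3 arrays per group; limma adjusted p = 0.0203), and all 3 shRNA3 arrays lay below all 3 shRNA1 arrays. The difference kept its sign under every alternative tried, between -0.20 and -0.16, and its adjusted p lay between 0.00655 and 0.116. It was lost without shRNA1 array 2 (0.053) or 3 (0.0872), without shRNA3 array 1 (0.0849) or 3 (0.0752), and with a summary by the median (0.116).

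RBFOX2, the target of the hairpins, differed between all of them, with shRNA2 above shRNA1 by 0.5777, shRNA3 above shRNA1 by 0.2943 and shRNA3 against shRNA2 at -0.2834 (limma adjusted p = 6.94e-07, 0.000182 and 0.000217), and these calls held under every alternative tried. RBM47 differed by 0.149 for shRNA3 minus shRNA2 (adjusted p = 0.0364, range over the alternatives 0.00891 to 0.185). ELAVL2, with shRNA2 the lowest, differed by -0.1824 for shRNA2 against shRNA1 (adjusted p = 0.0165, range 0.00233 to 0.0987) and by 0.1374 for shRNA3 against shRNA2 (adjusted p = 0.0382, range 0.0112 to 0.252). The genes compared between hairpins were the 8 regulators and the named or called genes of the other lists. Groups of 3 arrays were not tested for single outlying arrays.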

How the results depend on the processing

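Called member results kept their direction under all alternatives tried. For 3 of 12 called gene-level results against control (CELF1 with shRNA3 and for the mean, PTBP2 with shRNA3) the call was never lost, and each probe set call was lost under at least 1. Gene-level counts moved as follows. With all 3 hairpins the count was 0 as reported and 1 with gene values from exon probe sets, at the 60th percentile and by the median. With shRNA1 it was 1 as reported, 2 from exon probe sets, at the 60th percentile, by the median and with only the groups compared, and 3 with no filter. With shRNA2 it was 3 as reported, 1 with no filter and 0 with only the groups compared. For shRNA3 minus shRNA1 it was 1 as reported and 0 by the median. Leaving out each array gave 0 to 1 with all 3, 1 to 5 for the mean, 0 to 2 with shRNA1, 0 to 3 with shRNA2, 2 to 4 with shRNA3, 0 to 1 for shRNA3 minus shRNA1 and 0 to 2 for shRNA3 minus shRNA2.

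Splicing index counts, 1 for each hairpin and the mean as reported, were 0 with no filter in each. At the 60th percentile they were 0 for the mean and shRNA3. With exon probe sets as the reference of every exon and junction they were 0 with shRNA1 and 2 with shRNA2, by the median 4 with shRNA2, and with only the groups compared 0 with shRNA2. With the replicate block they were 0 with shRNA1 and shRNA2. Same-numbered control and shRNA1 arrays had r of -0.229, 0.0013 and -0.0183 over genes, and the labels do not tell what they share. The block changed no gene-level member call for shRNA2. With no fold minimum they were 1 with all 3, 11 for the mean and 2, 6 and 4 with shRNA1, shRNA2 and shRNA3. Leaving out each array gave 0 to 2 for the mean, 0 to 1 with shRNA1, 0 to 3 with shRNA2 and 0 to 1 with shRNA3.

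Some uncalled changes turned sign, and so did the called KHDRBS2 change with shRNA3 (-0.0059 with no filter), and the cause was not tested. By the median CELF2 was at 0.0154 for the mean and 0.0187, 0.0269 and 0.0007 with shRNA1, shRNA2 and shRNA3. KHDRBS1 was at -0.0133 and -0.0365, -0.0121 and 0.0088. HNRNPC was at 0.0586 for the mean, 0.1008 with shRNA1 and 0.1257 with shRNA2, and MBNL1 at 0.0229 with shRNA3. With no filter QKI was at -0.0032 with shRNA1 and -0.0022 with shRNA3, ELAVL4 at 0.0330 with shRNA3 and ILF2 at 0.0092 with shRNA2, and with gene values from exon probe sets QKI was at -0.0002 with shRNA1. Leaving out each array, HNRNPC with shRNA2 lay at -0.0818 to 0.0001, ILF2 with shRNA2 at -0.0355 to 0.0084, KHDRBS1 with shRNA3 at -0.0293 to 0.0025, QKI with shRNA3 at -0.0100 to 0.0330 and RBM47 with shRNA3 at -0.0396 to 0.0096. The number of arrays, 3 a group, limits the precision.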
